A study of Mus musculus with 36 samples.

Results

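Untreated mouse embryonic fibroblasts transduced with 4 heart transcription factors were compared with uninfected, untreated fibroblasts of the same study at day 21. The factors were Gata4, Hand2, Mef2c and Tbx5, together called GHMT. The comparison takes every library labelled GHMT or uninfected (UI) at day 21 without dimethyl sulfoxide (DMSO), 3 of each, so 6 of the 36 libraries measured. The other libraries are the same 2 arms at days 2 and 7, and the 3 days again with 1% DMSO. Both groups are fibroblasts of embryonic days 12.5 to 13.5 from a strain in which the Myh6 promoter drives mCherry, kept in StemPro34 medium with FGF2, FGF10 and VEGF. Neither group received DMSO, and no library of cells that carry virus without the 4 factors was analysed here. Cells were lysed on the culture plate and no sort is stated, so each library holds whatever cells the plate held. The labels do not state whether replicates come from different cultures, and the spread behind each p-value may therefore be technical. The arms were deposited as 2 tables and their library identifiers belong to 2 series, so arm, table and library batch cannot be told apart in any difference between the arms.

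Gata4, Mef2c and Tbx5 are DNA-binding regulators of the developing heart, and Hand2 is a basic helix-loop-helix factor of the same programme. Delivered together into fibroblasts they are used for direct reprogramming, in which a fraction of the cells comes to express heart muscle genes without passing through a stem cell. The contractile unit of heart muscle, the sarcomere, is built from myosin and actin filaments, and embryonic hearts use isoforms of these proteins that differ between atrium and ventricle.

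The promoters of 5 genes that were higher in GHMT libraries are shown first, because 3 belong to the sarcomere group and 2 to the interferon groups that the results below turn on. They are the 250 bases before the RefSeq start of each gene in GRCm38.p6, 5′ to 3′ on the gene's strand. Capitals in the first 3 mark a GATA motif, searched on both strands as the letters GATA with A or T before them and A or G after them, and capitals in the last 2 mark an interferon response motif, searched on both strands as GAAA repeated after a gap of 2 free bases.
Myh6 promoter, chr14:54966608-54966857, minus strand: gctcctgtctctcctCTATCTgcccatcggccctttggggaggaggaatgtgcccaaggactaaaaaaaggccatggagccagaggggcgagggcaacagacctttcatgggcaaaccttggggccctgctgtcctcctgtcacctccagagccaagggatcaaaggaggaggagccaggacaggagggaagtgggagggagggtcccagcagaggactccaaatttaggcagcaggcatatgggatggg
Ankrd1 promoter, chr19:36119845-36120094, minus strand: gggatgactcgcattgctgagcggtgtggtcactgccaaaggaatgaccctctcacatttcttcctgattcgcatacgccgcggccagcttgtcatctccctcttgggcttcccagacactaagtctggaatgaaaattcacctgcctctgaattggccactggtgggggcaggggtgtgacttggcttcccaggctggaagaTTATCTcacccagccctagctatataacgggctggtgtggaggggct
Myl7 promoter, chr11:5898783-5899032, minus strand: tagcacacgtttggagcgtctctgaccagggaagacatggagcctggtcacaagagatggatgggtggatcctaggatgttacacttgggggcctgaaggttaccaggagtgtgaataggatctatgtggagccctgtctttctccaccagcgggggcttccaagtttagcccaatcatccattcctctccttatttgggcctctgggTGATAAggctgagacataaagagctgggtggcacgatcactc
Oas3 promoter, chr5:120777660-120777909, minus strand: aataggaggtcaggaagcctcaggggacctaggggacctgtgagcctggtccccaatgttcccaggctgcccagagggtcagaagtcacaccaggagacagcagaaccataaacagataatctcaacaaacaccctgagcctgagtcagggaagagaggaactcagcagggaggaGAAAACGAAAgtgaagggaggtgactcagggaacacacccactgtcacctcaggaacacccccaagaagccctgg
Tgtp2 promoter, chr11:49064213-49064462, minus strand: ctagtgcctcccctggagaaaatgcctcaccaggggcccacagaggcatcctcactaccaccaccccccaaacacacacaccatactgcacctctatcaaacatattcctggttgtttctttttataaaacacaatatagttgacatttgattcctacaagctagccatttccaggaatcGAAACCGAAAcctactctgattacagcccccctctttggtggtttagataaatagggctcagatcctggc
Each of these genes has 1 promoter window in the RefSeq table, which runs from 250 bases before to 50 after the start. In that window the GATA motif was also matched 1 time for Oas3 and 2 times for Tgtp2, and these matches are not in capitals. All 5 promoters hold the motif marked in them, whereas the window of the sarcomere gene Actc1 held no GATA match. Of the 23 sarcomere group members that were called higher and have a window, 14 (60.9%) held the GATA motif, against 23.2% of the 11463 tested genes with a window. The interferon response motif was in 12 of 21 called type I interferon genes (57.1%) and in 10 of 16 called interferon-inducible GTPase and antigen presentation genes (62.5%), against 3.96% of tested genes. The MEF2 motif was in 4 of the 23 sarcomere windows (17.4%) and in 2.34% of tested genes, and the Hand E-box CATCTG was in 1 of the 23 (4.35%) and in 14.5% of tested genes. The GATA motif was also in 8 of the 16 GTPase and antigen presentation windows (50%) and in 5 of the 21 type I interferon windows (23.8%). The T-box motif AGGTGTG was in 3 of the 23 sarcomere windows (13%) and in 5.47% of tested genes. These shares describe letters in a window, not sites used in these cells, and genes with several windows had more chances to match.

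Levels below are TPM, a length-corrected share of transcripts, rescaled so that protein-coding genes sum to 1000000 in each library, and differences are GHMT minus uninfected on the log2(TPM + 1) scale, which understates the change of low genes. Replicates are given in the order 1, 2 and 3. A gene is said to have risen or fallen when limma called its GHMT level higher or lower than the uninfected level at a Benjamini-Hochberg adjusted p under 0.05 over all genes tested. Protein-coding genes took up 54.8 to 55.2% of deposited TPM in uninfected libraries and 60.6 to 63.1% in GHMT libraries, while 7SL RNA took up 21.0 to 23.7% and 13.4 to 18.5%. Correlation of log2 levels was 0.989 to 0.993 within GHMT libraries and 0.948 to 0.963 across the arms. Uninfected replicate 1 stood apart from its group: its correlation with replicates 2 and 3 was 0.984 and 0.983, while theirs with each other was 0.996. Of 11073 genes averaging 10 TPM or more in uninfected cells, 235 were over 2-fold above and 592 over 2-fold below both other libraries in replicate 1, compared with 120 and 38 in replicate 2. Of all other libraries, the one most correlated with it was replicate 1 of uninfected cells with 1% DMSO at day 21. TPM does not keep read depth, and how precisely low values were counted is not known. Mitochondrial genes have near-identical pseudogenes in the nuclear genome and several interferon and histocompatibility genes have close copies, so their levels are uncertain where reads can be split. In these bulk libraries, fewer cells of a type and less RNA per cell cannot be told apart.

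Of 20768 genes tested, 27.3% were called at day 21. In GHMT cells 3597 genes rose (17.3%) and 2083 fell (10.0%), and the median difference of all genes tested was 0.10. Counts of the gene lists below are to be read against these shares. Of the genes that rose, 1552 did so by over 2-fold and 113 by over 16-fold, and of those that fell, 830 did so by over 2-fold and 13 by over 16-fold. The 3 and 3 libraries did not overlap for 5099 genes that were higher in GHMT (24.6%) and 2954 that were lower (14.2%), 38.8% in all. Fitting only the 6 libraries called 3499 genes, and weighting libraries called 8603. The split between higher and lower depended on the scaling. Higher genes made up 63.3% of calls after rescaling to protein-coding genes, 79.6% with TPM as deposited and 50.1% with median ratio scaling.

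**Figure D1:**
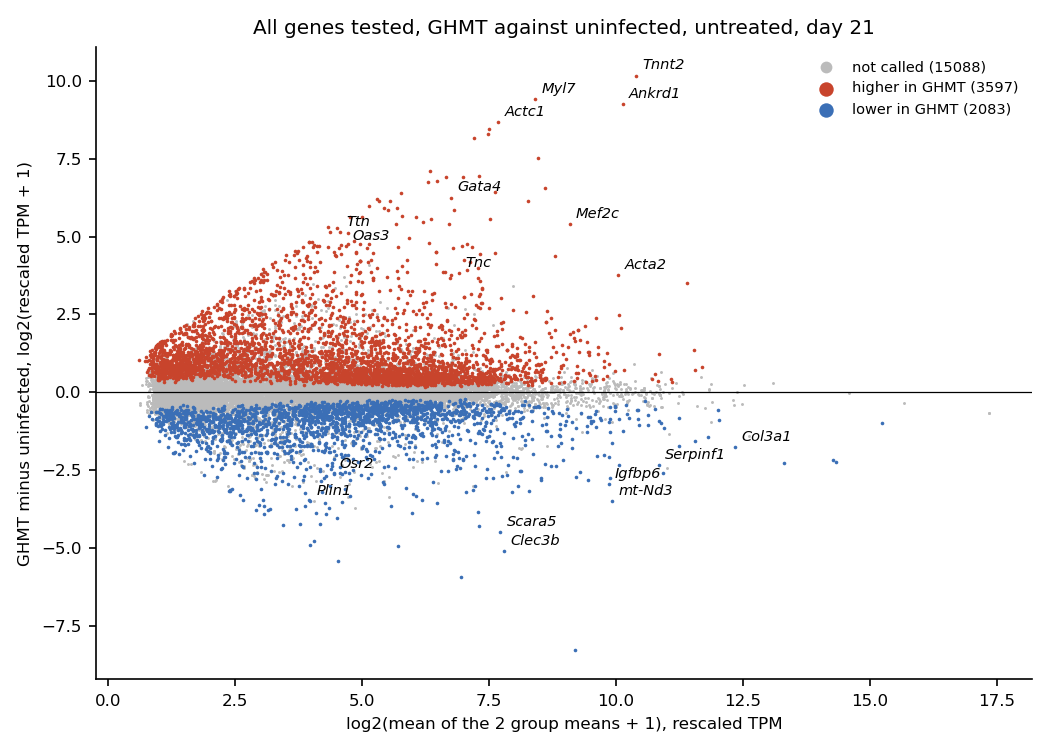
Difference between GHMT and uninfected libraries at day 21 (y axis, log2(rescaled TPM + 1)) against the mean level (x axis, log2), 1 point per gene tested; red points rose, blue points fell and grey points were not called. The 3597 genes that rose reach further from 0 than the 2083 that fell, with Tnnt2 and Ankrd1 at the upper end and Clec3b and Scara5 among the labelled genes that fell.

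The 4 transduced factors were all higher in GHMT libraries, and no GHMT library overlapped an uninfected one. Gata4 stood at 1.05, 2.10 and 2.33 TPM in uninfected libraries and at 185, 267 and 186 TPM in GHMT libraries, a difference of 6.25 ± 0.28 (SE; limma adjusted p = 1.9e-15). Mef2c, a MADS-box factor of muscle, stood at 18.2, 30.1 and 25.6 TPM against 1158, 1038 and 981 TPM, and was the most abundant of the 4 in both groups. Hand2 rose from a mean of 8.41 to 259 TPM and the T-box factor Tbx5 from 13.7 to 262 TPM. Uninfected cells thus held low levels of each factor, highest for Mef2c. Transcripts from the virus and from the cells' own genes are counted together in these values. Day 2 levels of the factors were already in the same range, with Gata4 at a mean of 184 TPM and Mef2c at 1476 TPM in GHMT cells.

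Most sarcomere genes rose. The list summed to 877, 1271 and 1359 TPM in uninfected libraries, where some members were already well expressed, and to 11873, 10587 and 11863 TPM in GHMT libraries. Of 37 genes in the heart and striated muscle list, 30 were tested, 27 rose and none fell, with a median difference of 3.79 against 0.10 for all genes tested. Cardiac troponin T, Tnnt2, which anchors the troponin complex to tropomyosin, stood at 1.79, 1.07 and 1.19 TPM in uninfected libraries and at 2904, 2271 and 2880 TPM in GHMT libraries, the largest difference of the list at 10.16 ± 0.33 (limma adjusted p = 2.2e-18). Ankrd1, an ankyrin repeat protein of the sarcomere and nucleus that responds to stretch, stood at 2.78, 1.96 and 3.47 TPM against 2364, 2116 and 2236 TPM, a difference of 9.25 ± 0.24 (limma adjusted p = 1.6e-20). The 2 genes are far apart in the groups and close together within them.

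Myl7, the regulatory light chain of atrial myosin, was listed at 0 TPM in all 3 uninfected libraries and at 639, 747 and 648 TPM in GHMT libraries. Actc1, cardiac alpha actin, was likewise listed at 0 in uninfected libraries and at 350, 445 and 427 TPM in GHMT libraries. Myh6, the alpha myosin heavy chain whose promoter drives the strain's reporter, stood at 0.011, 0.389 and 0.058 TPM and at 390, 367 and 311 TPM, a difference of 8.28 ± 0.32 (limma adjusted p = 6.0e-17). All 3 genes were at or near 0 in uninfected libraries and at 311 TPM or more in GHMT libraries.

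Thin filament and light chain partners rose as well. Tnnc1, the calcium-binding troponin subunit, rose from a mean of 7.59 to 607 TPM, Tnni3, the inhibitory cardiac subunit, from 8.75 to 166 TPM, and Myl4, an atrial and embryonic essential light chain, from 6.62 to 360 TPM. The giant spring protein Ttn stood at 0.216, 0.494 and 0.180 TPM against 51.1, 48.2 and 35.7 TPM, and Mybpc3, which binds myosin in the thick filament, rose from a mean of 0.083 to 68.4 TPM. Myom2, a cross-linker of the M-band, rose from 0.396 to 156 TPM. The 3 ventricular isoforms of the list were low in both groups. The ventricular regulatory light chain Myl2 stood at 0.622, 0.799 and 0.918 TPM in uninfected and 0.724, 0.595 and 0.604 TPM in GHMT libraries, and beta myosin heavy chain Myh7 at 0.231, 0.519 and 0.671 TPM against 1.69, 1.28 and 0.886 TPM. Neither of these passed the filter of 1 TPM in at least 3 libraries, and the tested ventricular essential light chain Myl3 differed by -0.17 ± 0.20 (limma adjusted p = 0.57).

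**Figure D2:**
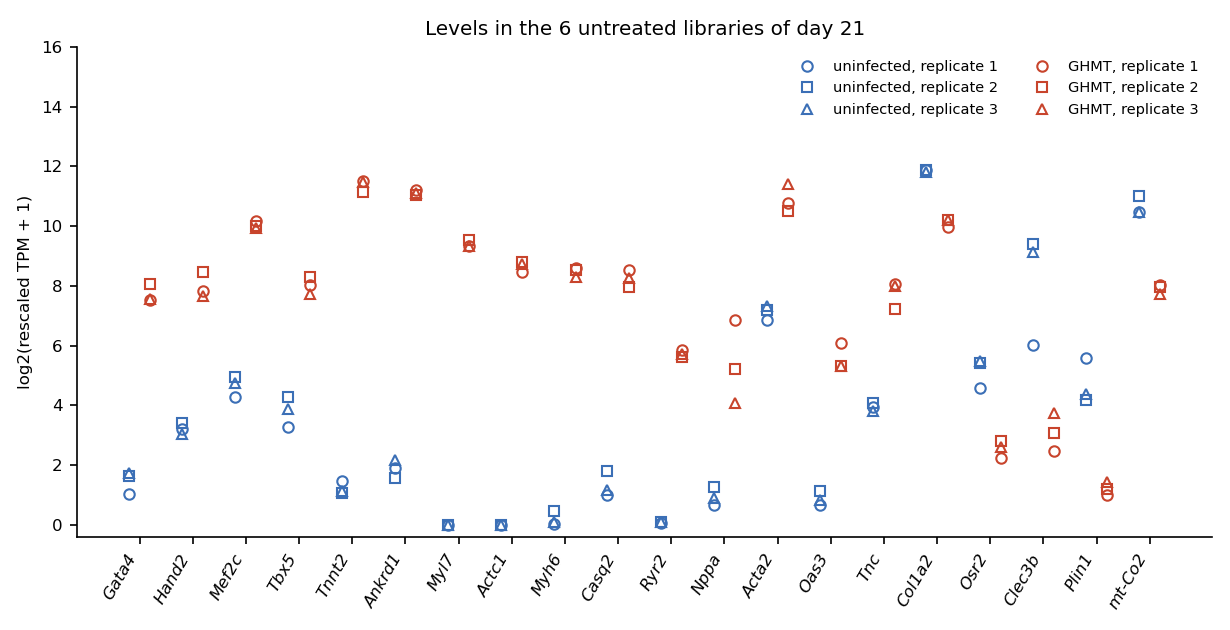
Levels of 20 genes in each of the 6 untreated libraries of day 21 on the log2(rescaled TPM + 1) scale, with uninfected libraries in blue and GHMT libraries in red and 1 marker shape per replicate number. Myl7 and Actc1 lie at 0 in all uninfected libraries, Nppa spreads among the GHMT libraries, and Clec3b and Plin1 show uninfected replicate 1 away from replicates 2 and 3.

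Genes that store calcium in the sarcoplasmic reticulum and move it were higher or not called. Of 16 tested, 11 rose and none fell (median 1.64). Casq2, which buffers calcium inside the reticulum of heart muscle, stood at 0.986, 2.49 and 1.23 TPM against 373, 250 and 308 TPM, a difference of 6.95 ± 0.33 (limma adjusted p = 4.4e-15). Ryr2, the cardiac calcium release channel, stood at 0.046, 0.074 and 0.074 TPM against 56.3, 48.2 and 51.2 TPM. Atp2a2, the calcium pump of the reticulum, was expressed in both groups and rose from a mean of 166 to 457 TPM, while its inhibitors Pln and Sln rose to means of 7.44 and 16.7 TPM.

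Among 15 tested ion channel and gap junction genes 9 rose and 1 fell (median 1.03). The pacemaker channel Hcn4 rose from a mean of 0.027 to 23.5 TPM, the potassium channel subunit Kcnj5 from 0.133 to 24.2 TPM, and Cacna1c, the pore of the L-type calcium channel, from 6.82 to 49.97 TPM. The gap junction protein Gja1 was the member that fell, from 279, 733 and 693 TPM to 251, 203 and 211 TPM. Its difference of -1.24 ± 0.31 (limma adjusted p = 0.0036) had an adjusted p of 0.0712 when only the 6 libraries were fitted.

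The secreted heart hormones spread widely among the GHMT libraries. Nppa, the atrial natriuretic peptide, stood at 0.571, 1.38 and 0.847 TPM in uninfected and at 116, 36.7 and 15.8 TPM in GHMT libraries, a difference of 4.46 ± 0.53 (limma adjusted p = 2.7e-07). Nppb, the B-type peptide, stood at 0.522, 0.403 and 0.217 TPM against 23.9, 8.28 and 4.50 TPM, in the same order of GHMT libraries. Corin, the protease that activates the Nppa precursor, was even across GHMT libraries at 145, 169 and 166 TPM, from 0.173, 0.147 and 0.203 TPM. Of 7 tested genes in the list 5 rose and 1 fell, the fall being that of the vasodilator peptide Adm from a mean of 718 to 205 TPM. Without uninfected replicate 1, 3 of the 7 rose.

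Heart development genes other than the 4 delivered factors, a list mostly of transcription factors, split. Of 20 tested, 6 rose and 2 fell (median 0.37). Tbx20, a T-box factor of the heart, stood at 0.217, 0.539 and 0.168 TPM against 83.0, 92.5 and 97.4 TPM, a difference of 6.14 ± 0.27 (limma adjusted p = 1.8e-15). Myocd, a coactivator of serum response factor in heart and smooth muscle, rose from a mean of 0.334 to 24.6 TPM, and Popdc2, a membrane protein in the same list, from 0.536 to 88.7 TPM. Nkx2-5, a homeobox factor of cardiac progenitors, was listed at 0 in all 3 GHMT libraries and at 0.047, 0 and 0 TPM in uninfected libraries, and Hand1 was also listed at 0 in all GHMT libraries. Irx3 fell from a mean of 7.71 to 1.86 TPM. Zfpm2, a cofactor of GATA proteins, fell from 25.0 to 15.2 TPM, and its adjusted p of 0.018 ranged from 0.0562 to 0.0914 when GHMT replicate 1 or 2, or uninfected replicate 2 or 3, was left out.

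Of 26 tested genes of muscle energy metabolism 11 rose and 3 fell (median 0.36). Myoglobin, Mb, stood at 0, 0.093 and 0 TPM in uninfected and 23.2, 11.9 and 9.91 TPM in GHMT libraries, and muscle glycogen phosphorylase Pygm rose from a mean of 1.58 to 24.3 TPM. Lipoprotein lipase Lpl fell from 421, 536 and 619 TPM to 117, 106 and 176 TPM, and brain-type creatine kinase Ckb from a mean of 135 to 39.9 TPM. The fatty acid transporter Cd36 fell from 108, 32.6 and 25.4 TPM to 6.20, 20.2 and 6.45 TPM. Its adjusted p of 0.016 became 0.122 without uninfected replicate 1 and 0.0758 and 0.0664 without GHMT replicates 1 and 3. Of 45 nuclear genes of the respiratory chain and ATP synthase 7 rose and 3 fell (median 0.10), not above the 17.3% and 10.0% of all genes. With TPM as deposited 20 rose and 2 fell. Without uninfected replicate 1, 5 rose and 1 fell (median 0.20), and without GHMT replicate 1 again 5 rose and 1 fell.

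Skeletal muscle was represented by few genes. Of 26 listed isoforms and regulators 15 stayed under 1 TPM in all 6 libraries, and of 11 tested 5 rose and none fell (median 0.79). Myl1, a fast skeletal and embryonic light chain, rose from a mean of 0.416 to 32.4 TPM, Actn3, a Z-disc actinin of fast fibres, from 0.870 to 25.9 TPM, Tnnt3 from 3.42 to 32.8 TPM, and Cav3, a muscle caveolin also found in heart, from 0.114 to 6.39 TPM. The skeletal master regulator Myod1 was listed at 0 in all 6 libraries, and Myog did not exceed 0.124 TPM in any.

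Contractile genes of smooth muscle and myofibroblasts were also higher. Of 25 tested, 17 rose and 4 fell (median 1.35). Smooth muscle alpha actin, Acta2, stood at 115, 145 and 161 TPM in uninfected and 1758, 1465 and 2701 TPM in GHMT libraries, a difference of 3.77 ± 0.41 (limma adjusted p = 5.0e-08). Myh11, the smooth muscle myosin heavy chain, stood at 1.36, 1.82 and 4.43 TPM against 156, 115 and 209 TPM, and the regulatory light chain Myl9 rose from a mean of 39.2 to 845 TPM. GHMT replicate 3 was the highest of its group for all 3 genes, as it was for Pdlim3, a Z-disc PDZ-LIM protein at 173, 188 and 392 TPM against a mean of 1.06 TPM in uninfected cells. The fibroblast activation protease Fap moved the other way, from 26.8, 20.5 and 25.0 TPM to 8.78, 9.68 and 8.41 TPM.

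**Figure D3:**
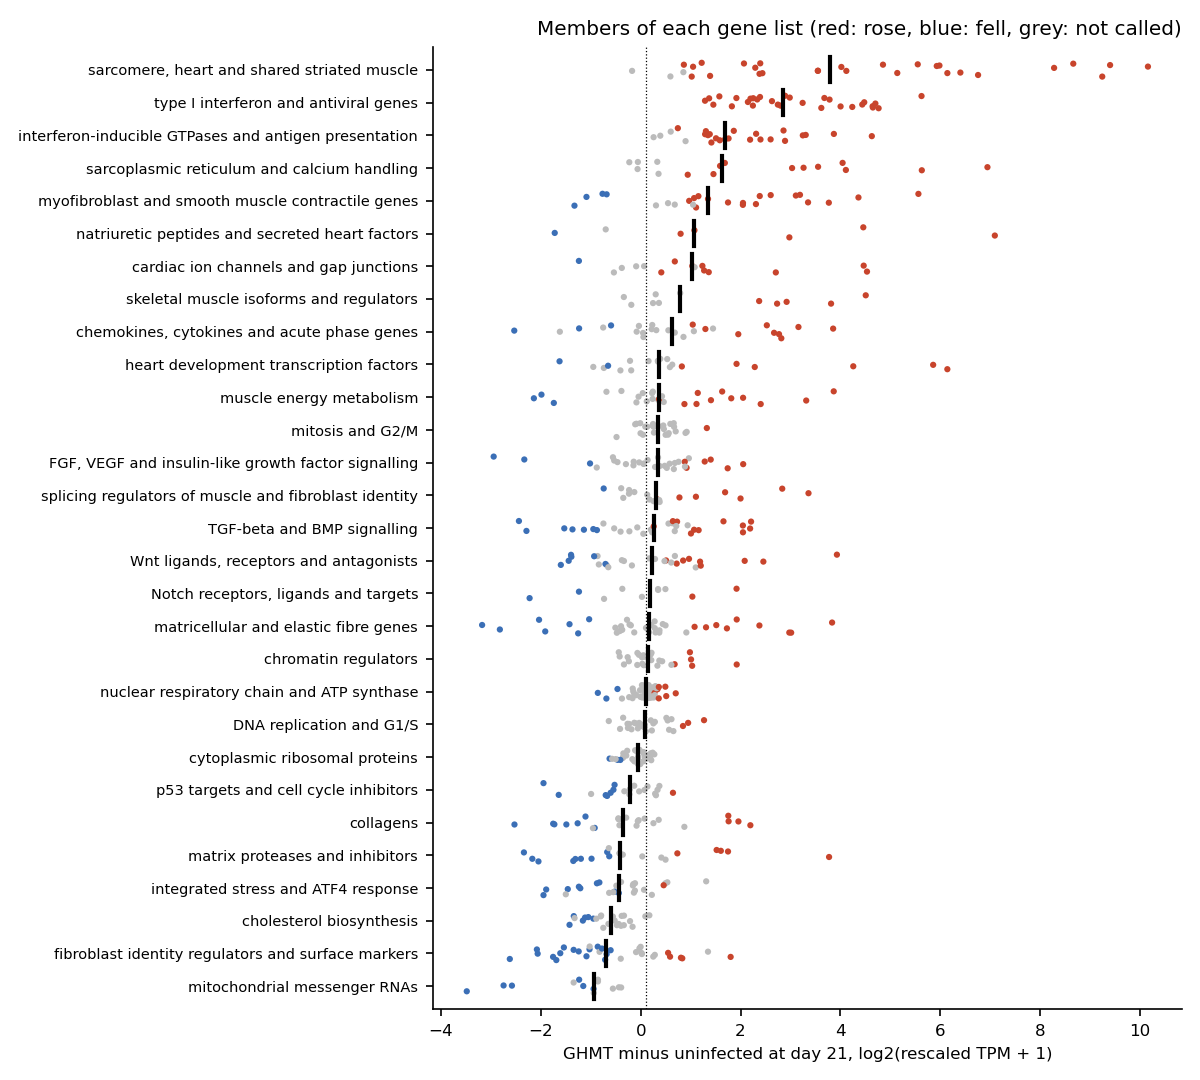
Differences between GHMT and uninfected libraries at day 21 (x axis, log2(rescaled TPM + 1)) for the tested members of 29 gene lists, 1 point per gene, ordered by the list's median (black bar); the dotted line is the median of all genes tested, 0.10. Sarcomere genes (median 3.79) and type I interferon genes (median 2.85) lie at the top, and mitochondrial messenger RNAs (median -0.94) and fibroblast identity genes (median -0.70) at the bottom.

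Of 32 tested fibroblast identity genes, 16 fell and 5 rose (median -0.70), where 10.0% of all genes fell. Without GHMT replicate 1 or 2 or uninfected replicate 3 the number that rose was 3. Osr2, an odd-skipped zinc finger factor of embryonic mesenchyme, stood at 23.1, 42.2 and 44.1 TPM against 3.73, 6.02 and 5.06 TPM, a difference of -2.62 ± 0.30 (limma adjusted p = 1.9e-07). The homeobox factors Meox2 and Prrx2 fell from means of 53.9 and 138.7 TPM to 11.9 and 32.2 TPM, and the mesenchymal factor Twist1 from 100.7 to 29.5 TPM. Members that rose included Lhx9, from 1.52, 1.48 and 1.49 TPM to a mean of 7.77 TPM, and the intermediate filament gene Vim, from 2512, 2517 and 2186 TPM to 4738, 4078 and 3829 TPM. So the list did not move as one. The summed level of its genes overlapped between groups, at 9032 to 10007 TPM in uninfected and 9058 to 10196 TPM in GHMT libraries. Vim made up a large part of each sum, and without it the sum of every GHMT library was below that of every uninfected library.

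Collagens were mixed. Of 24 tested, 4 rose and 7 fell (median -0.36), where 17.3% and 10.0% of all genes did. The median was -0.09 without uninfected replicate 1 and -0.18 without GHMT replicate 3. Col3a1, a fibrillar collagen of soft tissue, fell from 9231, 7802 and 7060 TPM to 1941, 2230 and 3062 TPM, and Col1a2, a chain of type I collagen, from 3783, 3794 and 3565 TPM to 1010, 1175 and 1181 TPM. The partner chain Col1a1 stood at 2235, 2718 and 2278 TPM against 1206, 1575 and 1072 TPM with no overlap, but its difference of -0.92 ± 0.35 had an adjusted p of 0.049, which became 0.0766 to 0.149 without GHMT replicate 1 or 3 or any 1 uninfected library. Col5a3 fell from a mean of 177 to 29.0 TPM. Col11a1, a minor fibrillar collagen, and the cartilage collagen Col10a1 rose, from 80.2 to 319 TPM and from 1.61 to 11.3 TPM.

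Of 37 matricellular and elastic fibre genes 9 rose and 7 fell (median 0.17, and 0.008 and 0.001 without GHMT or uninfected replicate 3). Tenascin C, Tnc, a matrix protein of remodelling tissue, stood at 14.4, 15.9 and 12.9 TPM against 269, 150 and 257 TPM, a difference of 3.83 ± 0.35 (limma adjusted p = 3.3e-09). Ltbp1, which stores latent TGF-beta in the matrix, rose from a mean of 47.8 to 374 TPM and Adamtsl2 from 18.1 to 147 TPM. The microfibril genes Mfap5 and Mfap2 fell, Mfap5 from 791, 422 and 481 TPM to 38.2, 78.6 and 68.8 TPM, and the small proteoglycan Ogn fell from 464, 1552 and 1637 TPM to 89.3, 105 and 350 TPM. Postn, a matricellular protein of activated fibroblasts, overlapped between groups at 1392, 1411 and 1088 TPM against 1321, 912 and 1002 TPM (limma adjusted p = 0.44). Among 21 tested proteases and inhibitors 5 rose and 9 fell (median -0.42), with the collagenase Mmp13 higher at a mean of 21.0 TPM from 0.446 TPM, Timp3, an inhibitor of metalloproteases, higher at 1039 TPM from 342 TPM, and the secreted serpin Serpinf1 lower at 609 TPM from 3062 TPM. Adamts12 and the urokinase gene Plau also fell, to means of 39.3 and 46.8 TPM.

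The largest falls among well expressed protein-coding genes include several in which uninfected replicate 1 was far from replicates 2 and 3. Clec3b, a plasminogen-binding lectin, stood at 64.4, 677 and 555 TPM in uninfected and 4.61, 7.38 and 12.5 TPM in GHMT libraries, a difference of -5.08 ± 0.73 (limma adjusted p = 5.2e-06). Scara5, a scavenger receptor that binds ferritin, stood at 116, 552 and 550 TPM against 7.44, 14.7 and 23.2 TPM, and the transcription cofactor Ldb2 at 24.6, 126 and 115 TPM against 2.36, 6.12 and 6.86 TPM. In each of the 3 the low uninfected library lay above every GHMT library, which the ranking required, as it took only genes without overlap. S100b, a calcium-binding protein, was even among uninfected libraries at 32.2, 33.7 and 38.2 TPM and fell to 2.44, 1.48 and 2.28 TPM, and the sushi-repeat protein Srpx fell from 201, 308 and 364 TPM to 10.5, 18.9 and 31.8 TPM. Entpd2, an ectonucleotidase, and Lgi2 fell to means of 13.1 and 6.76 TPM from 164 and 119 TPM. The aldehyde oxidase Aox3 fell from 12.7, 37.9 and 57.3 TPM to 0.980, 0.404 and 2.36 TPM. Hist2h2aa1 is also among the 12 largest falls, but this histone gene has near-identical copies between which reads can be split, and it was listed at 0 in GHMT replicates 1 and 3 and at 22.4 TPM in replicate 2. Its adjusted p of 0.0059 became 0.0975 when the 5 libraries other than uninfected replicate 1 were fitted alone.

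Fat cell genes were lower in GHMT cells and highest in uninfected replicate 1. The summed level of the 10 adipocyte markers was 1280, 404 and 449 TPM in uninfected libraries and 185, 182 and 178 TPM in GHMT libraries. Of 9 tested, 6 fell and none rose (median -1.77), and without uninfected replicate 1 it was 5 (median -1.35). Plin1, which coats lipid droplets, stood at 47.6, 17.0 and 19.6 TPM against 1.02, 1.31 and 1.71 TPM, and the muscle and fat carbonic anhydrase Car3 at 95.8, 15.5 and 15.8 TPM against 0.161, 1.07 and 1.62 TPM. Adiponectin, Adipoq, stood at 54.7, 11.3 and 8.28 TPM against 0.305, 2.12 and 3.40 TPM, with an adjusted p of 0.0011 that became 0.0551 when only the 6 libraries were fitted and 0.0167 without uninfected replicate 1. The fat cell regulator Cebpa was even among uninfected libraries, at 67.8, 59.3 and 55.9 TPM, and fell to 7.32, 11.4 and 9.19 TPM. In every uninfected library the 4 named genes stood above all GHMT libraries. For Plin1 and Car3, taken from the largest falls, the ranking required this.

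Interferon-stimulated genes were higher in GHMT cells without exception among the listed type I genes. All 30 tested rose, with a median difference of 2.85, where 17.3% of all genes rose. Oas3, which makes the 2-5A signal that activates RNase L, stood at 0.596, 1.18 and 0.783 TPM in uninfected and 67.1, 38.9 and 39.2 TPM in GHMT libraries, a difference of 4.70 ± 0.48 (limma adjusted p = 1.9e-08). Its relative Oas2 rose from a mean of 1.43 to 67.1 TPM. Ifi44 stood at 1.06, 1.73 and 1.31 TPM against 216, 61.3 and 115 TPM, the widest spread of the 3 among GHMT libraries, and its difference of 5.63 ± 0.86 had a limma adjusted p of 1.4e-05. Without uninfected replicate 1, 28 of the 30 were called.

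Interferon-inducible GTPases, which act on vacuoles of intracellular pathogens, and antigen presentation genes showed the same direction, with 21 of 25 higher and none lower (median 1.69). Tgtp2, a GTPase of the IRG family, stood at 0.308, 1.34 and 0.491 TPM against 57.0, 20.2 and 55.3 TPM, and Iigp1, of the same family, at 8.76, 12.2 and 12.5 TPM against 232, 129 and 178 TPM. Tgtp2 has a near-identical copy, Tgtp1, so its share of reads is uncertain. Among 26 tested chemokines, cytokines and acute phase genes 9 rose and 3 fell (median 0.62, from 0.34 without uninfected replicate 2 to 1.00 without uninfected replicate 1). The acute phase protein Saa3 stood at 13.5, 7.66 and 4.77 TPM against 413, 50.1 and 103 TPM, and Il1rn, the interleukin 1 receptor antagonist, rose from a mean of 4.63 to 52.1 TPM. Complement C3 fell from 469, 406 and 536 TPM to 60.3, 68.6 and 123 TPM. GHMT replicate 1 was the highest of its group for Ifi44, Oas3 and Saa3. Only the GHMT arm received virus, so the factors and the infection cannot be told apart here.

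Signalling genes rose and fell within the same pathways. Of 31 tested genes of TGF-beta and BMP signalling 11 rose and 7 fell (median 0.26). The BMP targets Id1 and Id3, inhibitors of helix-loop-helix factors, fell from 202, 251 and 160 TPM to 24.7, 40.6 and 47.4 TPM and from a mean of 637 to 138 TPM. The ligands Gdf6 and Tgfb3 rose, from means of 4.28 and 44.8 TPM to 20.9 and 191 TPM, and so did the BMP antagonist Grem1, from 1.87 to 12.8 TPM. Of 28 Wnt pathway genes 9 rose and 6 fell (median 0.23), with the secreted antagonists Sfrp5 and Frzb higher at 17.8 and 24.3 TPM from 0.216 and 4.39 TPM, the ligand Wnt4 higher at 7.53 TPM from 0.975 TPM, and the agonist Rspo1 lower at 5.78 TPM from 18.2 TPM. Median ratio scaling gave 8 higher and 8 lower Wnt genes.

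Of 31 FGF, VEGF and insulin-like growth factor genes 6 rose and 3 fell, shares near the 17.3% and 10.0% of all genes. The median was 0.35, and 0.18 to 0.19 without GHMT replicate 2 or 3 or uninfected replicate 3. The binding proteins Igfbp6 and Igfbp3 were among the abundant genes that fell, Igfbp6 from 1031, 1958 and 1934 TPM to 152, 296 and 187 TPM, and Igfbp3 from a mean of 1773 to 354 TPM. The receptor Fgfr3 rose from 0.979 to 7.27 TPM. Among regulators of splicing 7 of 18 rose and 1 fell (median 0.30), with 2 falling without GHMT replicate 3 or uninfected replicate 1. Rbm20, which sets the splicing of titin, rose from 1.55, 2.28 and 2.17 TPM to a mean of 20.4 TPM, Rbm24 from 0.056 to 9.95 TPM and Rbm38 from 1.35 to 8.37 TPM. Of 28 chromatin regulators 5 rose and none fell (median 0.14), a share near the 17.3% of all genes, and without uninfected replicate 1, 4 rose and 1 fell (median 0.08). The largest rise was that of the class II deacetylase Hdac9 from 1.69 to 9.06 TPM. Of 10 tested Notch pathway genes 2 rose and 2 fell (median 0.19), where 17.3% and 10.0% of all genes did. Without uninfected replicate 1 the number that rose was 1 (median -0.07).

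Cholesterol synthesis genes were lower or not called, with 6 of 24 lower and none higher (median -0.60). Insig1, a sterol-regulated brake on the pathway, stood at 280, 322 and 170 TPM against 78.5, 94.4 and 105 TPM, a difference of -1.43 ± 0.33 (limma adjusted p = 0.0018). Hmgcs1, which makes the precursor HMG-CoA, stood at 373, 285 and 184 TPM against 101, 138 and 125 TPM, with an adjusted p of 0.016 that became 0.0711 without GHMT replicate 1 and 0.0913 without uninfected replicate 1. Without uninfected replicate 1, 1 of the 24 was called, without GHMT replicate 1, 2 were, and with median ratio scaling 10 were. Of 25 genes of the integrated stress response 9 fell and 1 rose (median -0.44), none rising without GHMT replicate 1 or 2 or uninfected replicate 3. Among those that fell were the hormone Fgf21, from a mean of 4.22 to 0.395 TPM, and the mTOR inhibitor Ddit4, from 94.7 to 35.5 TPM. Of 20 p53 targets and cell cycle inhibitors 7 fell and 1 rose (median -0.22). With TPM as deposited 3 fell and 3 rose (median -0.05), with only the 6 libraries 2 fell, and without GHMT replicate 1 or 3 the number that fell was 3 or 4.

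Few cell cycle genes were called between the arms at day 21. Of 26 tested mitosis genes 1 rose and none fell (median 0.35), and of 28 genes of replication and G1/S 3 rose and none fell (median 0.08). Leaving out 1 library moved the mitosis median between 0.07 (without GHMT replicate 2) and 0.79 (without uninfected replicate 1). For replication and G1/S it moved between -0.09 (without uninfected replicate 2) and 0.43 (without uninfected replicate 1, with 5 genes higher). The mitosis gene that rose was Anln, a scaffold of the dividing cell's contractile ring, from a mean of 5.76 to 15.8 TPM. Its adjusted p of 0.021 became 0.0886 without GHMT replicate 2 and 0.0812 and 0.0603 without uninfected replicates 2 and 3. The proliferation marker Mki67, not called, stood at 7.33, 0.891 and 0.457 TPM in uninfected and 2.66, 7.07 and 1.43 TPM in GHMT libraries, so uninfected replicate 1 and GHMT replicate 2 were the high ones. With library weights, which count libraries that stand apart for less, 11 of the 26 mitosis genes were called higher, and of the 28 genes of replication and G1/S 10 were higher and 1 lower.

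Mitochondrial messenger RNAs were lower in GHMT libraries, taking up 0.981 to 1.69% of the protein-coding total against 2.77 to 3.24% in uninfected libraries. Of 13 genes 6 fell and none rose (median -0.94), and without uninfected replicate 1 the number was 2 (median -1.02) and without GHMT replicate 3 it was 3 (median -0.76). The cytochrome oxidase subunit mt-Co2 stood at 1436, 2051 and 1439 TPM against 263, 251 and 210 TPM, a difference of -2.75 ± 0.47 (limma adjusted p = 5.3e-05). The NADH dehydrogenase subunit mt-Nd3 stood at 2415, 1535 and 1400 TPM against 97.9, 234 and 158 TPM, with an adjusted p of 0.020 that became 0.0772 without GHMT replicate 1 and 0.0641 without uninfected replicate 1. Genes for cytoplasmic ribosomal proteins had 3 of 35 lower and none higher (median -0.05), none called without GHMT replicate 1 or uninfected replicate 1, but 4 higher and none lower with TPM as deposited.

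The same arms at day 2 show which of these differences were there at the start of the time course. At day 2, 43.7% of the 20768 genes were called, 3598 higher (17.3%) and 5469 lower (26.3%) in GHMT cells, with a median of -0.20. To compare the days, the day 21 difference between arms was set against the day 2 difference. This cancels an offset between the 2 tables that is equal at both days on the log2(TPM + 1) scale. An offset in TPM need not be equal there for genes near 0. The comparison also removes whatever set the arms apart by day 2. By this test 16.8% of genes changed differently over time, 2622 towards GHMT (12.6%) and 869 towards uninfected cells (4.18%), with a median of 0.27. With median ratio scaling the split turned to 1466 towards GHMT and 2076 towards uninfected cells. Without uninfected replicate 1 the test called 1975 genes, against 3491 with it, and without GHMT replicate 1 of day 2 it called 1930.

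Among sarcomere genes 19 of 30 had a change difference towards GHMT and none the opposite, and 21 were already higher at day 2. Some members were already high in GHMT cells at day 2 and others were not. Ankrd1 stood at a mean of 590 TPM in GHMT cells at day 2, 1779 TPM at day 7 and 2239 TPM at day 21, and its change difference of 0.66 was not called (limma adjusted p = 0.17). Tnnt2 stood at 1155, 2034 and 2685 TPM on the same days, and Myl7 at 95.9, 466 and 678 TPM. Myh6 and Actc1 were low at first, at means of 1.30 and 1.28 TPM at day 2, 89.6 and 75.2 TPM at day 7 and 356 and 407 TPM at day 21. The change difference of Myh6 was 7.10 (limma adjusted p = 1.0e-10), that of Tnni3 was 4.33, that of Myl4 was 4.69 and that of Tbx20 was 4.30. The 10 cardiomyocyte markers all had a called change difference towards GHMT cells.

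The interferon genes were higher at both days. At day 2 uninfected replicate 3 stood apart in these genes. The type I genes summed to 950, 717 and 5724 TPM in uninfected and 26592, 25914 and 23112 TPM in GHMT libraries, and 29 of the 30 were over 2-fold above both other uninfected libraries in replicate 3. All 30 were called higher in GHMT cells at day 2, with a median of 4.60, and 5.50 without that library. Of the 30, 6 had a called change difference, each towards uninfected cells, and without that library 15 did. All 25 tested GTPase and antigen presentation genes were higher at day 2 (median 3.57), and 14 had a called change difference towards uninfected cells. Without uninfected replicate 3 of day 2 this number was 22, and without uninfected replicate 1 or 2 of day 2 or GHMT replicate 2 of day 21 it was 9. Tgtp2 stood at means of 867, 147 and 44.2 TPM in GHMT cells at days 2, 7 and 21, with a change difference of -3.58 (limma adjusted p = 0.014) that had an adjusted p of 0.0631 when only the groups compared were fitted. Oas3 stood at means of 44.2, 44.1 and 48.4 TPM in GHMT cells on the same days. Collagens had 16 lower at day 2 (median -1.57) and 7 change differences towards GHMT, 3 without GHMT replicate 1 of day 2 and 4 without uninfected replicate 3 of day 2 or GHMT replicate 1 of day 21. Col1a1 was among the 7 at 1.80, and its adjusted p was 0.0597 without GHMT replicate 1 of day 2. Its mean in uninfected cells was 5774, 6291 and 2410 TPM at days 2, 7 and 21, and in GHMT cells it was 968, 1608 and 1284 TPM. Mitosis genes had 25 of 26 higher at day 2 (median 1.90), and 7 change differences, all towards uninfected cells. That number was 1 to 3 when 1 of 7 libraries was left out: GHMT replicate 2 or 3 or uninfected replicate 1 or 3 of day 2, or GHMT replicate 1 or 3 or uninfected replicate 1 of day 21.

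**Figure D4:**
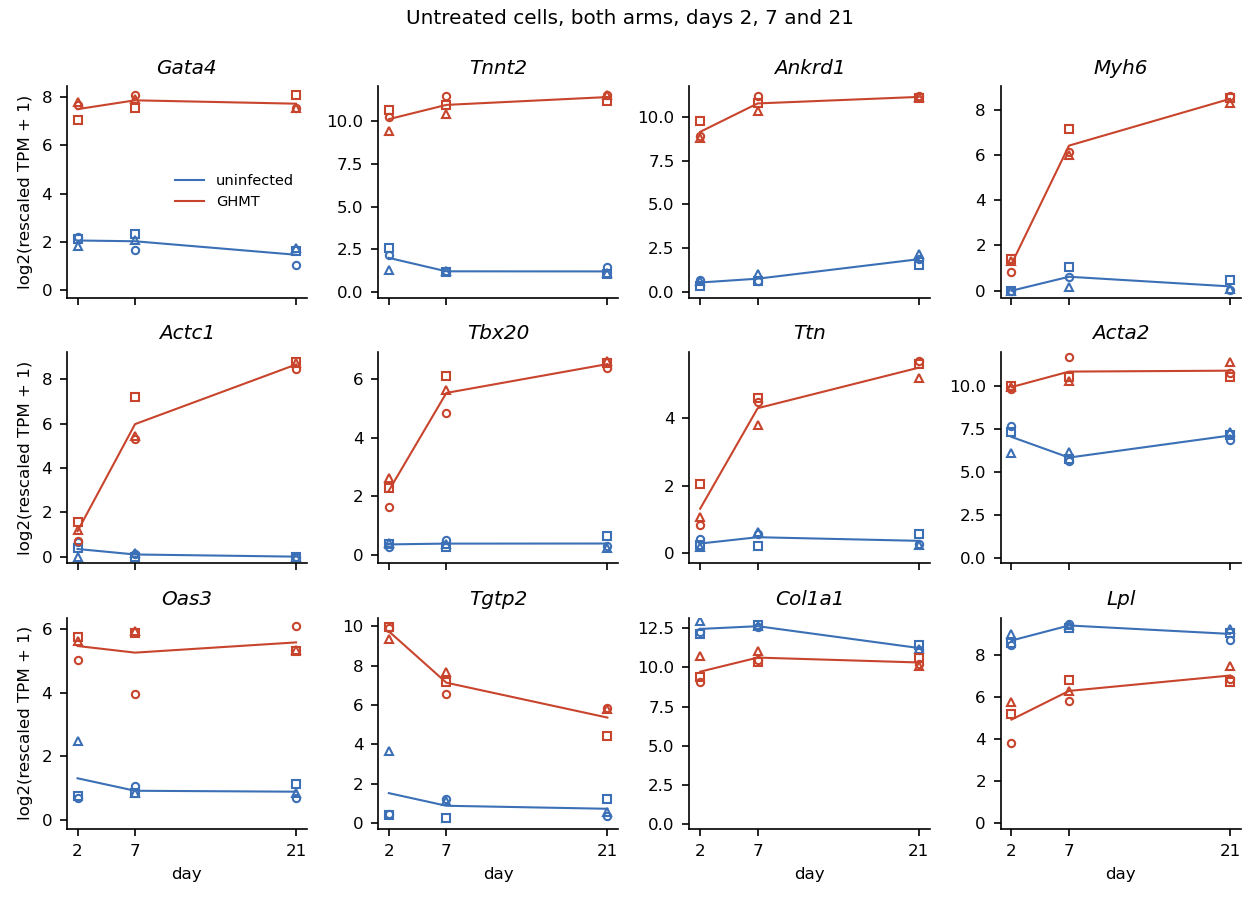
Levels of 12 genes in untreated uninfected (blue) and GHMT (red) libraries at days 2, 7 and 21 on the log2(rescaled TPM + 1) scale; markers are single libraries by replicate number and lines join group means. Ankrd1 and Tnnt2 are high from day 2, Myh6, Actc1, Tbx20 and Ttn climb from low levels at day 2 to day 21, and Tgtp2 declines in GHMT cells.

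Markers of defined cell types were summed per library as a check of the label. Cardiomyocyte markers summed to 12.6, 15.3 and 18.6 TPM in uninfected and 4743, 4228 and 4571 TPM in GHMT libraries, and all 10 rose (median 5.81). Fibroblast markers fell but stayed abundant, at 26146, 25907 and 23792 TPM against 12852, 13373 and 14343 TPM, with 6 of 10 lower and 1 higher. Smooth muscle markers summed to 272 to 314 TPM against 2177 to 4090 TPM, with 9 of 10 higher and 1 lower. GHMT libraries thus held high levels of fibroblast, cardiomyocyte and smooth muscle markers side by side.

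Fewer genes were called at day 21 among the markers of other cells. Macrophage and leukocyte markers summed to 106, 189 and 229 TPM in uninfected and 262, 667 and 124 TPM in GHMT libraries, so the groups overlapped. Of 19 markers 16 were tested, and 15 of these were higher in GHMT libraries (median 0.75). Only 1 rose, the pore-forming protein Mpeg1, and it was not called without GHMT replicate 1 or 2 or uninfected replicate 1 (limma adjusted p = 0.0721 to 0.108). At day 2 the markers summed to 66.0, 65.9 and 89.8 TPM in uninfected and 405, 807 and 157 TPM in GHMT libraries, without overlap. Of the 16, 7 were called higher at day 2 and none lower, where 17.3% and 26.3% of all genes were. The part of these cells in the interferon result was not tested. Endothelial markers summed to 72.5, 90.7 and 101 TPM in uninfected and 196, 199 and 238 TPM in GHMT libraries, without overlap. Of 8 tested 2 rose and 1 fell. The VEGF receptor Flt1 rose from 43.6, 55.2 and 59.8 TPM to 165, 168 and 202 TPM. It made up most of each endothelial sum, and without it the sums of the groups overlapped. The receptor Tek fell from a mean of 13.2 to 1.68 TPM, and Cdh5 did not exceed 1.90 TPM in any library. Epicardial and mesothelial markers had 3 of 14 higher and 2 lower, where 17.3% and 10.0% of all genes were. The number lower was 1 when any 1 library other than uninfected replicate 1 was left out. Mesothelin, Msln, rose from a mean of 132 to 654 TPM. Of 6 tested cartilage and bone markers 3 were higher and 3 lower in GHMT libraries (median 0.15), and of these 2 rose and none fell. Alkaline phosphatase Alpl was 1 that rose, from 0.905 to 40.8 TPM. Of 6 tested neuronal and glial markers 2 rose and 2 fell (median -0.39). The microtubule protein Map2 rose from 5.23 to 103 TPM, S100b is one that fell, and Sox10 did not exceed 0.406 TPM in any library. Epithelial markers summed to 17.3 to 39.5 TPM in uninfected and 9.02 to 12.6 TPM in GHMT libraries, and of 4 tested 2 fell and none rose (median -0.90). Epcam, of epithelia, did not exceed 0.228 TPM, and the globin Hba-a1 was listed at 0 in all GHMT libraries.

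**Figure D5:**
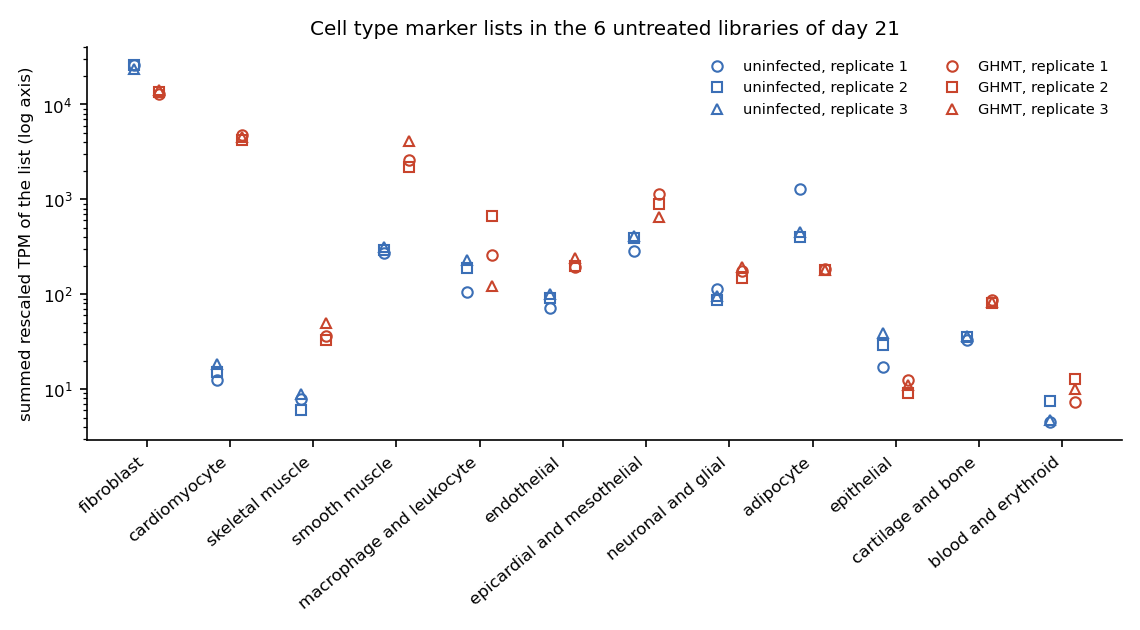
Summed rescaled TPM (log axis) of each cell type marker list in the 6 untreated libraries of day 21, with uninfected libraries in blue, GHMT libraries in red and 1 marker shape per replicate number. The cardiomyocyte sum is at most 18.6 TPM in uninfected and at least 4228 TPM in GHMT libraries, and the macrophage sums of the groups overlap.

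Genes outside these lists complete the largest rises among well expressed protein-coding genes. The ADP-ribosyltransferase family gene Art3, known in skeletal muscle and testis, stood at 3.68, 2.29 and 2.57 TPM in uninfected and 737, 620 and 739 TPM in GHMT libraries, a difference of 7.52 ± 0.50 (limma adjusted p = 5.2e-12). Dsp, the desmoplakin of cell junctions that bear load in heart and skin, stood at 0.373, 0.749 and 0.672 TPM against 190, 163 and 170 TPM. Aldh3a1, an aldehyde dehydrogenase best known from cornea, stood at 0.745, 0.636 and 0.504 TPM against 154, 249 and 194 TPM. The groups were far apart for all 3, which the ranking by size among genes without overlap selects for.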

How the data were processed

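Per the labels' protocols, TRIzol and a Direct-zol kit were used for RNA, and a TruSeq RNA kit for libraries. The deposited values are TPM per Ensembl gene, 1 table for each of the 2 arms, per the file headers. Trimmomatic, FastQC and kallisto are named in the submitters' processing notes, with build, annotation and strand setting all not given in the sources used here. Each of the 36 columns sums to 1000000 over 50698 entries. The 97 entries that name no gene were left out, and they held 0.502 to 3.32% of TPM in the 6 libraries. Repeated symbols were summed to 50509 symbols, 50377 gene IDs matched GENCODE M21, used for gene types, and 21752 symbols were protein-coding. All value columns were used.

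TPM were divided by each library's protein-coding sum, multiplied by 1000000 and analysed as log2(TPM + 1). Genes with at least 1 TPM in 3 or more of the 6 libraries were tested. Means of all 12 groups were fitted over the 36 libraries with limma 3.58.1 in R 4.3.3, using a trend of variance on mean level (24 residual degrees of freedom), and all tests were two-sided with Benjamini-Hochberg adjustment. The script was tested on simulated data. Since TPM is scaled within each library, the 2 tables were compared directly. Median differences, counts and sums were made with pandas 2.3.3 in Python 3.11.15. Promoter windows came from RefSeq (GRCm38.p6), matched by symbol.

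Alternatives were pseudocounts of 0.1 and 5, no filter, a filter at 5 TPM and one over all 36 libraries, TPM as deposited, median ratio scaling, a total without mitochondrial and transduced genes, a block for replicate number, fits on fewer libraries, no trend and library weights. Each untreated library of day 21 or day 2 was also left out in turn. Libraries of day 7 and those with DMSO were not left out singly. The fit of the groups alone without uninfected replicate 1 and those without each day 2 library were added after the data were seen.

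The 42 gene lists, their members and the tests were chosen with earlier results of these data known. The rule for named genes took Myh6 with the 4 factors, the 12 largest rises and 12 largest falls among called protein-coding genes averaging 10 TPM or more in 1 group and no overlap, and up to 3 called members of each list in each direction. Of these the text gives the ones that fit its groups. Tnnc1, Myl4, Tnni3, Mybpc3, Ttn, Myl3, Pln, Atp2a2, Cav3, Col1a1, Postn, Twist1, Fabp4 and Mki67 were chosen after their values were seen, as were the members given as low in both groups or at 0.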

Additional observations from a re-analysis of the deposited data

Results flagged for a closer look

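Genes are given here because the difference between the arms at day 21 departed from the same difference at day 2, by a term fitted for that difference with limma. Of 125 tested genes of the text, which leave out Fabp4 and Mki67, 57 met this, 48 towards GHMT and 9 towards uninfected cells. Of all genes, 12.6% and 4.18% did. The 2 cannot be compared: 123 of the 125 were called at day 21, most were named for that, and the day 21 difference enters the value. Values are the day 21 difference less the day 2 difference on the log2(TPM + 1) scale, so a change in either arm enters the value. For Actc1 and Myl7, listed at 0 in uninfected cells at day 21, the size depends on the pseudocount.

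Among sarcomere genes the value was 7.86 for Actc1, 7.10 for Myh6, 4.96 for Myom2, 4.69 for Myl4, 4.41 for Mybpc3, 4.33 for Tnni3, 4.11 for Ttn, 3.61 for Tnnc1, 3.15 for Myl7 and 2.08 for Tnnt2. Calcium handling and channel genes had 3.93 for Kcnj5, 3.11 for Ryr2, 2.71 for Hcn4, 1.62 for Pln, 1.58 for Cacna1c and 0.967 for Atp2a2. Hormone, regulator and junction genes had 4.30 for Tbx20, 3.92 for Nppa, 2.39 for Corin, 2.38 for Popdc2, 2.22 for Nppb, 2.16 for Dsp and 1.24 for Myocd. Other muscle genes had 3.42 for Myl1, 2.97 for Tnnt3, 2.86 for Mb, 2.81 for Myh11, 2.71 for Cav3, 2.36 for Pygm, 2.28 for Actn3, 1.99 for Pdlim3 and 1.61 for Myl9.

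Matrix genes had 3.97 for Mmp13, 2.39 for Adamtsl2, 2.07 for Col11a1, 1.80 for Col1a1 and 1.53 for Postn. Col1a1 and Postn were not higher in GHMT cells at day 21. The mean of Postn in uninfected cells was 5146 TPM at day 2 and 1297 TPM at day 21, and in GHMT cells 1469 and 1078 TPM. The value was 5.38 for Saa3, 2.96 for Alpl, 2.73 for Sfrp5, 2.59 for Aldh3a1, 2.01 for Rbm20, 1.99 for Msln, 1.79 for Lpl, 1.75 for Gdf6, 1.71 for Fgfr3, 1.51 for Rbm38 and 1.23 for Wnt4. Lpl was lower in GHMT cells at both days, with means of 422 and 34.0 TPM in uninfected and GHMT cells at day 2 and 525 and 133 TPM at day 21.

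The 9 values towards uninfected cells were -3.58 for Tgtp2, -3.38 for Car3, -2.94 for Plin1, -2.76 for mt-Co2, -2.40 for Id1, -1.98 for Id3, -1.96 for Aox3, -1.89 for Hmgcs1 and -1.65 for Insig1. Of the 13 mitochondrial messenger RNAs mt-Co2 was the only 1 with a called change difference (list median 0.02). Of the 13, 8 were already lower in GHMT cells at day 2 (median -1.36). At day 2 Plin1 stood at means of 0.877 TPM in uninfected and 0.257 TPM in GHMT cells. The difference of Id1 at day 2 was -0.04, with means of 44.2 and 41.8 TPM.

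Leaving out 1 library of day 21 ended the call for 9 of these genes. Without uninfected replicate 1 the adjusted p (limma) was 0.0539 for Aldh3a1, 0.0563 for Pln, 0.0650 for Nppb, 0.0779 for Myocd, 0.0846 for Lpl, 0.0503 for Insig1, 0.148 for Car3 and 0.0590 for Wnt4. Without uninfected replicate 3 it was 0.0669 for Nppb, 0.0522 for Myocd and 0.106 for Aox3, and without uninfected replicate 2 it was 0.0634 for Aox3. Without GHMT replicate 1 it was 0.125 for Nppb, 0.0590 for Myocd, 0.0920 for Car3 and 0.0687 for Aox3. Without GHMT replicate 2 it was 0.0634 for Aldh3a1, 0.0540 for Pln, 0.0526 for Nppb, 0.0705 for Myocd, 0.0607 for Car3, 0.0971 for Aox3 and 0.0675 for Wnt4. Without GHMT replicate 3 it was 0.0519 for Myocd and 0.0762 for Lpl. Leaving out 1 library of day 2 ended it in at least 1 case for Aldh3a1, Pln, Atp2a2, Nppb, Myocd, Lpl, Col1a1, Car3, Aox3 and Wnt4, at adjusted p from 0.053 for Aox3 to 0.13 for Myocd. By other settings, fitting only the groups compared ended the calls of Pdlim3, Col1a1, Tgtp2, Gdf6, Nppb, Lpl, Aox3 and Wnt4. Median ratio scaling ended those of Atp2a2, Myl9, Nppb and Myocd. A pseudocount of 5 ended those of Rbm38, Aldh3a1, Nppb and Car3, and 0.1 those of Tgtp2, Nppb, Myocd, Car3 and Aox3. Without a filter Nppb, Myocd, Lpl, Car3 and Aox3 lost it. Fitting only untreated libraries ended it for Nppb, Car3, Aox3 and Wnt4, and library weights for Car3.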

How the results depend on the processing

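Against 5680 genes called at day 21, fitting only the groups compared gave 3499 and library weights gave 8603. The other settings stayed within 1.5 times, from 4576 with a filter at 5 TPM to 6472 with TPM as deposited, and leaving out 1 library gave 4237 to 5171. For the change between days, called for 3491 genes, fitting only the groups compared gave 1786. Leaving out 1 library gave 1930 to 4188, the lowest without GHMT replicate 1 of day 2, then 1975 without uninfected replicate 1 of day 21, and the highest without uninfected replicate 2 of day 21. Leaving out day 2 libraries was added after the data were seen. The day 2 count of 9067 ranged from 6696 to 10111. The causes were not tested.

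Scaling moved the median difference of all genes at day 21 from 0.10 to 0.24 with TPM as deposited and to 0.005 with median ratio scaling. At day 2, where 39.7% of calls were higher, TPM as deposited gave 55.1% and median ratio scaling 53.4%.

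Replicate numbers were checked for pairing: deviations of same-numbered libraries of the arms from their group means correlated at -0.065, -0.057 and 0.065, so the numbers were not taken to pair them. With the replicate block 5968 genes were called at day 21, 3968 in the change between days and 9329 at day 2.

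None of the same 125 genes, which leave out Fabp4 and Mki67, reversed at day 21 under the settings run, and 10 of the 123 called lost the call under at least 1. The change difference of Ankrd1, not called, turned to -0.32 with a pseudocount of 0.1 and was called with a pseudocount of 5 and with TPM as deposited (limma adjusted p = 0.00157 and 0.0388), and without GHMT replicate 2 of day 2 (0.0439). Of the 57 called change differences 16 were lost under at least 1 setting and none reversed. TPM keeps no depth, so no interval for counting error can be given.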

Other observations

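Uninfected replicate 1 of day 21 departed from replicates 2 and 3 in several gene groups at once. Fabp4, a fatty acid carrier of fat cells, stood at 991, 186 and 214 TPM in the uninfected libraries and at 92.1, 115 and 91.6 TPM in GHMT libraries, so its groups did not overlap although its difference was not called. The urokinase gene Plau stood at 386, 116 and 147 TPM and the collagen gene Col5a3 at 286, 132 and 112 TPM in uninfected libraries. Genes lower in replicate 1 included Clec3b, Scara5, Ogn, Gja1 and Adm, the last at 353, 884 and 916 TPM. Among genes averaging 10 TPM or more in GHMT cells, no GHMT library was over 2-fold above both others for more than 194 of 11429 genes, or over 2-fold below both for more than 173.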
